A study of Arabidopsis thaliana with 6 samples.

Results

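The genes described here are 10 xyloglucan endotransglucosylase/hydrolase (XTH) genes of Arabidopsis thaliana: XTH4, XTH7, XTH8, XTH9, XTH15, XTH16, XTH17, XTH22 (listed as TCH4), XTH24 and XTH33. They are 10 of the 33 XTH genes looked up and 10 of the 18216 protein-coding genes with assigned poly(A) site clusters. They were taken by locus, with no threshold on a measured value, but were chosen with earlier results of these data known. A gene's count sums the clusters on its strand that lie within it or end at most 200 nt beyond it. The filter on low counts kept 9 of the 10 genes and left out XTH17. The 2 groups were Light, seedlings given light for 6 h (3 libraries), and Dark, seedlings left in darkness for the same 6 h (3 libraries). Both groups were whole Col 0 seedlings, grown for 1 to 2 weeks under constant white light and then held in darkness for 48 h, so the Dark seedlings had been grown in light before. The assay, 3'READS+, reads RNAs at their poly(A) junction. Each read marks a cleavage position, and a gene's count does not grow with its length, so levels are set side by side between genes here. How far reads that match several genes, or clusters shared by genes, affect such comparisons was not tested. Whether the libraries of a group are separate plantings is not stated in the labels; the p-values rest on the spread among the 3 libraries of each group, which may be technical.

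XTH enzymes act on xyloglucan, the hemicellulose that coats and tethers cellulose microfibrils in the primary wall. They cut a xyloglucan chain and join the new end to another chain (endotransglucosylase activity), and some members pass it to water instead (hydrolase activity). The wall can thereby be rearranged or strengthened while a cell grows. Plants carry a large XTH family whose members differ in tissue and in their response to touch, hormones, shade and darkness.

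Library totals were 13196815 to 13513571 reads in Light and 13355548 to 14534166 reads in Dark, and 97.1% of all reads were assigned to genes. Levels are in CPM, read counts scaled to the TMM-adjusted library size. Dark replicate 2 stood apart from Dark replicate 1, with a chi-square per degree of freedom of 28.7 across genes, against 6.48 to 14.3 for the other replicate pairs. The summed level of 4 seed storage genes was 23.5 CPM in Light replicate 1, 0.202 and 0.0642 CPM in the other Light libraries, and 0.0875 to 0.175 CPM in Dark. Of 7 root and root hair markers, 3 had no assigned reads and 3 were tested, of which 2 rose and 1 fell in Light. The summed level of the list was 6599 to 7764 CPM in Light and 1103 to 2028 CPM in Dark, nearly all from PYK10, a root and hypocotyl beta-glucosidase. The summed level of 5 epidermis and guard cell markers, all tested, was 104.7 to 119 CPM in Light and 97.97 to 113.9 CPM in Dark. Of these, 1 rose, 1 fell and the other 3 missed the threshold. Of 5 vasculature markers, 4 were tested, and 2 rose, 1 fell and 1 missed the threshold, at a summed 9.56 to 10.6 CPM in Light and 7.52 to 9.29 CPM in Dark. Over all genes tested, 37.4% were called higher and 35.6% lower in Light. The marker counts depended on the scaling. By library totals alone, 2 root, 4 epidermis and guard cell and 3 vasculature markers were called higher in Light by edgeR. The 1 fall in each list was then no longer called. The part of these marker differences in the results below was not tested, and in whole seedlings a change in the number of cells of a type and in RNA per cell cannot be told apart.

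Most XTH genes of the set were lower after 6 h of light. Of the 9 members tested, 6 fell in Light (XTH4, XTH15, XTH16, XTH22, XTH24 and XTH33), 1 rose (XTH7), and 2 did not pass (XTH8 and XTH9) by edgeR's quasi-likelihood test at an adjusted p of 0.05. Over all 16775 genes tested, 35.6% were called lower and 37.4% higher in Light, 72.9% in either direction. Of all calls 51.2% were higher in Light, against 68.2% with scaling by library totals alone, which called 2 members higher. The median log2 change, Light minus Dark, was -1.97 over the 9 members and 0.04 over all genes tested. Changes of at least 4-fold were called for 5 of the 9 members, against 17% of all genes tested. The library ranges of the groups did not overlap for 8 of the 9 members, against 75.7% of all genes tested. Since the members were chosen with earlier results of these data known, these values beside all genes are descriptions, without a test.

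**Figure D1:**
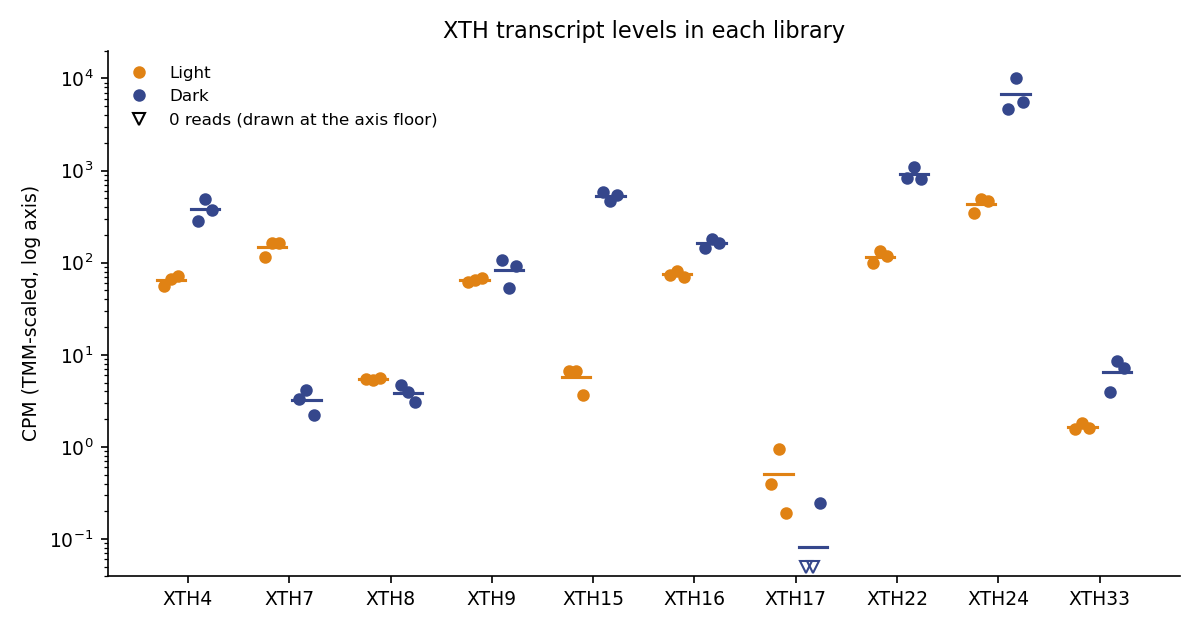
Level of each of the 10 XTH genes in CPM on a log axis, with 1 point per library, Light to the left of Dark, and a bar at the group mean. XTH7 is the gene with Light far above Dark, XTH15 and XTH24 lie far below Dark in Light, and XTH17 had 0 reads in 2 Dark libraries.

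XTH24 (AT4G30270), also known as MERI5 and SEN4, was first described from meristem and senescence cDNA collections. It was the most abundant member in both groups. XTH24 had 348, 488 and 465 CPM in the 3 Light libraries, against 4629, 10020.1 and 5517 CPM in the 3 Dark libraries. All Dark libraries lay far above all Light libraries, and Dark replicate 2 held about as much as the other Dark libraries together. The gene fell 15.5-fold in Light (log2 change -3.95, SE 0.37, adjusted p = 7.03e-09 by edgeR). By mean level it ranked 290 of the 18216 genes in Light and 11 in Dark. Without Dark replicate 2 the log2 change was -3.55.

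XTH22 (AT5G57560), the TOUCH 4 gene, is known as rapidly induced by touch, brassinosteroid, auxin and darkness. In Light it had 98.96, 133 and 117 CPM, against 826, 1105 and 813 CPM in Dark. The ranges were wide apart, and the gene fell 7.86-fold in Light (log2 change -2.97, SE 0.19, adjusted p = 6.76e-10 by edgeR). By mean level it stood at rank 1383 in Light and 172 in Dark. XTH22 and XTH23 are similar in sequence, and how the authors treated reads that match several genes is unknown here. Of the other TOUCH genes, TCH3 (AT2G41100), a calmodulin-like protein, fell 3.89-fold, with 173 ± 30.9 CPM in Light and 672 ± 103 CPM in Dark (n = 3 each, SD). The remaining genes of that list did not pass: CAM2 (AT2G41110), the TOUCH 1 calmodulin, had a log2 change of 0.06 and TCH2 (AT5G37770) of 0.32. With scaling by library totals alone both passed as higher in Light, CAM2 at 0.52 (adjusted p = 0.00266 by edgeR) and TCH2 at 0.78 (adjusted p = 1.55e-04).

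XTH15 (AT4G14130), XTH16 (AT3G23730), XTH17 (AT1G65310) and XTH9 (AT4G03210) belong to the XTH genes known to respond to canopy shade in petioles and stems. XTH15, also called XTR7, had the largest change of the members. It had 6.71, 6.68 and 3.66 CPM in Light, against 587, 470 and 537 CPM in Dark. In reads, this was 103, 99 and 57 in Light and 6698, 5372 and 6544 in Dark. Its log2 change of -6.55 (SE 0.30, adjusted p = 1.31e-11 by edgeR) ranked 73 in size among the 16775 genes tested. The neighbour AT4G14120 overlaps its 3' end and was read on the opposite strand, and reads were counted by strand.

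XTH16 had 73.9, 81.7 and 69.4 CPM in Light, against 144, 182 and 165 CPM in Dark. The ranges did not overlap, and the gene fell 2.18-fold, the smallest change among the called members (log2 change -1.13, SE 0.12, adjusted p = 9.16e-07 by edgeR). XTH9, expressed in shoot tips, had 62.3, 64.3 and 67.6 CPM in Light, against 107, 52.8 and 91.5 CPM in Dark. Light libraries agreed closely, while Dark replicate 2 lay below all of them and the other Dark libraries above. The log2 change of -0.37 (SE 0.31) did not pass (adjusted p = 0.091 by edgeR). Without Dark replicate 2 it was -0.62 and passed (adjusted p = 4.43e-05), and with scaling by library totals alone it was 0.07 and did not pass (adjusted p = 0.772).

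XTH17, known from the root elongation zone, was near the detection limit. It had 6, 14 and 3 reads in Light, against 0, 0 and 3 reads in Dark. The 23 reads in Light and 3 in Dark correspond to a ratio of 5.87, for which counting error alone allows 1.77 to 30.5 (95% interval). The lowest Light library and the highest Dark library both held 3 reads, so the groups met. XTH17 belongs to a subgroup of similar genes with XTH18, XTH19 and XTH20, and how reads of near-identical stretches were shared is not given in the sources used here.

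XTH7 (AT4G37800) was the member that rose. It had 116, 162 and 163 CPM in Light, against 3.33, 4.11 and 2.22 CPM in Dark. Every Light library was far above every Dark library. The gene rose 45.7-fold (log2 change 5.51, SE 0.30, adjusted p = 4.53e-11 by edgeR). Its rank by mean level was 1079 in Light and 12474 in Dark.

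XTH8 (AT1G11545) had 5.41, 5.33 and 5.65 CPM in Light, against 4.65, 3.94 and 3.04 CPM in Dark. All Light libraries were slightly above all Dark libraries, yet the log2 change of 0.50 (SE 0.17) missed the threshold (adjusted p = 0.0508 by edgeR). It passed with scaling by library totals, at a log2 change of 0.95 (adjusted p = 0.00157), at 0.51 with no reach past the gene end (adjusted p = 0.0447) and at 0.63 without Dark replicate 1 (adjusted p = 0.0281).

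XTH4 (AT2G06850) is also called EXGT-A1, for its endotransglucosylase activity. It had 56.0, 67.3 and 72.4 CPM in Light, against 284, 496 and 377 CPM in Dark. The ranges were separate, and the gene fell 5.91-fold (log2 change -2.56, SE 0.26, adjusted p = 1.37e-08 by edgeR). XTH33 (AT1G10550), a family member with a predicted membrane-spanning stretch, was much less abundant. It had 1.56, 1.82 and 1.60 CPM in Light, against 3.95, 8.49 and 7.23 CPM in Dark. In reads these were 24, 27 and 25 in Light and 45, 97 and 88 in Dark, with no overlap in CPM. It fell 3.93-fold (log2 change -1.97, SE 0.33, adjusted p = 3.09e-05 by edgeR).

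**Figure D2:**
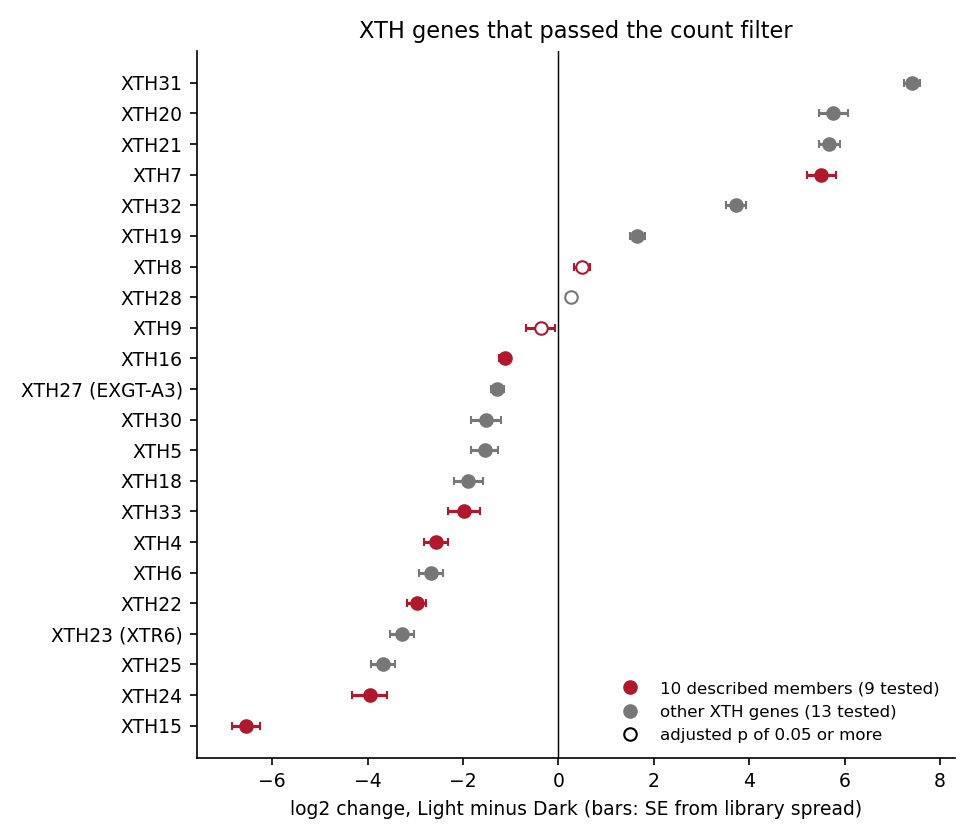
Log2 change, Light minus Dark, of the 22 XTH genes that passed the count filter, with the SE from the spread of log2 CPM between libraries. Red points are the described members and grey points the other XTH genes, and open points did not pass. XTH31 and XTH15 lie at the ends, at 7.42 and -6.55.

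The order of the members differed between the groups. In Light, XTH24 had the highest mean (434 ± 75.1 CPM), followed by XTH7 (147 ± 27.1), XTH22 (116 ± 17.1), XTH16 (75.0 ± 6.22), XTH4 (65.2 ± 8.39), XTH9 (64.7 ± 2.72), XTH15 (5.68 ± 1.75), XTH8 (5.46 ± 0.166), XTH33 (1.66 ± 0.138) and XTH17 (0.509 ± 0.389; SD, n = 3). Library ranges overlapped between XTH7 and XTH22, between XTH16 and XTH4, between XTH4 and XTH9 and between XTH15 and XTH8. Of these pairs, XTH7 was above XTH22 in each of the 3 Light libraries, and in the other pairs the first gene was higher in 2 of 3. The neighbours in the order were not tested against each other. In Dark, the order was XTH24 (6722 ± 2890.4 CPM), XTH22 (915 ± 165), XTH15 (532 ± 58.9), XTH4 (386 ± 106), XTH16 (164 ± 19.3), XTH9 (83.7 ± 27.8), XTH33 (6.55 ± 2.34), XTH8 (3.87 ± 0.807), XTH7 (3.22 ± 0.952) and XTH17 (0.0821 ± 0.142; SD, n = 3). There XTH15 and XTH4, XTH33 and XTH8, and XTH8 and XTH7 overlapped, each with the first gene higher in 2 of 3 libraries.

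Several members varied widely between Dark libraries. The coefficient of variation in Dark was 43.0% for XTH24, 35.8% for XTH33, 33.2% for XTH9, 29.6% for XTH7 and 27.5% for XTH4, against a median of 9.39% over 7662 genes with at least 10 CPM in both groups. XTH8, XTH17 and XTH33 in both groups, XTH7 in Dark and XTH15 in Light lie below 10 CPM, where counting error adds to the spread. XTH15 and XTH16 were steadier in Dark, at 11.1% and 11.8%. In Light the members that passed the filter, so without XTH17, ranged from 3.04% (XTH8) to 30.9% (XTH15), against a median of 8.38%. Dark replicate 2 was the highest Dark library for XTH4, XTH7, XTH16, XTH22, XTH24 and XTH33 and the lowest for XTH9 and XTH15.

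Together the 10 genes held 0.0903, 0.116 and 0.114% of the assigned reads in the Light libraries, against 0.582, 1.00 and 0.652% in the Dark libraries. XTH24 dominated these sums. Without it, the other members summed to 421, 523 and 501 CPM in Light, against 1961, 2323 and 1997 CPM in Dark, so their sum was also lower in every Light library. XTH24 made up 47.2% ± 1.70 of the members' reads in Light and 74.95% ± 5.62 in Dark (n = 3 each, SD). XTH7 made up 15.97% ± 0.925 in Light and 0.0378% ± 0.0112 in Dark. XTH15 made up 0.637% ± 0.248 in Light and 6.62% ± 2.59 in Dark, while the share of XTH22 overlapped between the groups, at 12.7% ± 0.522 in Light and 10.8% ± 1.79 in Dark. These sums and shares are given as descriptions, without a test.

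**Figure D3:**
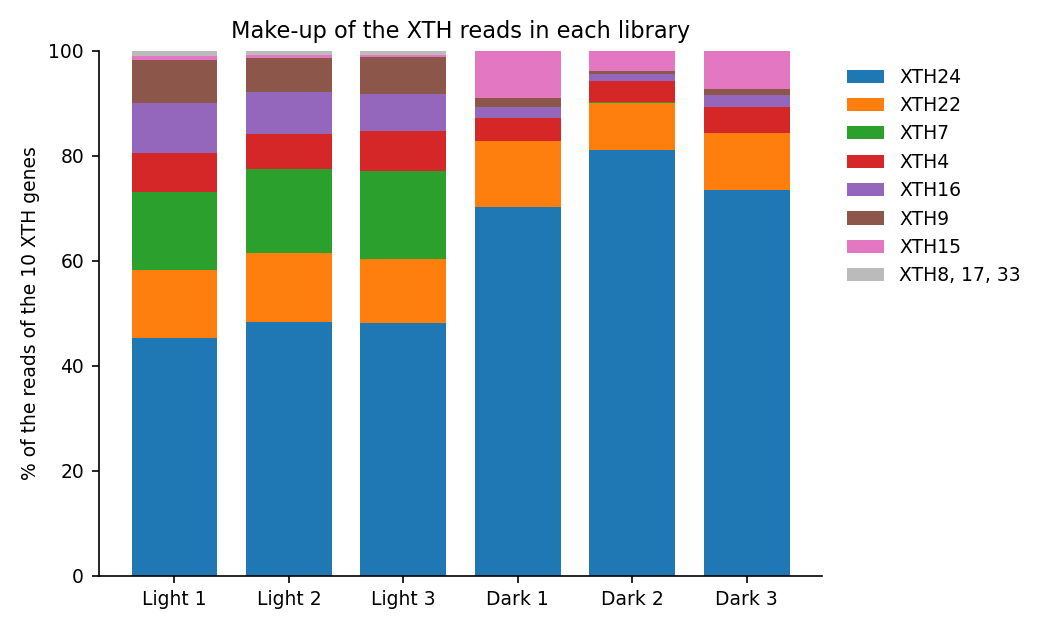
Share of each gene, in percent, of the reads of the 10 XTH genes in each library, Light libraries left of Dark libraries. XTH24 fills 45.3 to 48.3% of the Light bars and 70.2 to 81.2% of the Dark bars, and XTH7 is visible in the Light bars alone at this scale.

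The poly(A) sites of the members lay close to the annotated gene ends. The 10 genes held 114 clusters with reads, of which 23 had at least 5% of their gene's reads. The positions given here come from the deposited table (TAIR10, the build in the submitters' processing notes), and the gene ends from a RefSeq table on TAIR10.1. Within each gene, the 5% sites lay 26 to 117 nt apart, with a wider gap of 747 nt in XTH8. XTH15 was cleaved almost at a single place, the cluster at position 8137057 of chromosome 4 (minus strand), 37 nt before the gene end, with 99.2% of its reads. XTH24 also had 1 site of at least 5%, at 14819271 of chromosome 4 (minus strand), 79 nt before the gene end, with 89.2%. Its next sites held 4.82 and 3.37%. The leading site held 89.2% of the reads of XTH16, 86.7% of XTH9, 85.1% of XTH22, 82.4% of XTH4, 78.2% of XTH8 and 65.9% of XTH7. XTH33 was the most divided, with 4 sites at 20.3, 31.7, 9.15 and 37.9% of its reads. Its leading site over all libraries, at 3479023 of chromosome 1 (minus strand), lay 43 nt past the annotated end. That site led in Light replicates 1 and 2 and Dark replicate 2. In Dark replicates 1 and 3 the site 92 nt before the end held more (35.6 and 39.8% against 24.4 and 30.7%). In Light replicate 3 the site 127 nt before the end did (36.0 against 32.0%). Reads more than 400 nt before the gene end made up 7.53% of those of XTH8, from 23 reads at 849 nt and a few others, and at most 0.764% in the other members.

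Site usage changed in 3 of the 6 members that could be tested, XTH4, XTH9 and XTH16, by edgeR's diffSpliceDGE with Simes' method. Over all 11075 genes tested, 25.5% were called. In each of the 3 genes a minor site gained share in Light. Over single sites, 3 of the 13 member sites tested were called, against 14.2% of 29779 sites over all genes. Several of these calls changed when 1 library was left out. Without Light replicate 1 or without Light replicate 3, 0 of the members were called by edgeR (2 and 1 of them had an unadjusted p under 0.05), and 1 was called without Light replicate 2 or without Dark replicate 3. XTH4 was lost in 5 of the 6 cases, all but the one without Dark replicate 1, with adjusted p of 0.0536 to 0.181. Without Dark replicate 2, 8 members could be tested and 3 were called. XTH4 was not among these, so they include a member outside XTH4, XTH9 and XTH16. XTH9 was lost without Light replicate 1 (adjusted p = 0.146) and without Light replicate 3 (adjusted p = 0.101). XTH16 was lost without Dark replicate 3 (adjusted p = 0.0638), and could not be tested without any 1 Light library, since its minor site, at 5.03% of all reads of the gene, then fell under the minimum of 5%.

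XTH9 used the site at 1417329 of chromosome 4 (plus strand), 115 nt before the gene end and 26 nt beyond the leading site at 1417303, in 11.4, 7.45 and 9.49% of its reads in Light, against 4.11, 3.97 and 4.58% in Dark. All Light libraries lay above all Dark libraries (relative log2 change 0.81, adjusted p = 0.0175 for the site by edgeR). XTH16 used the site at 8551376 of chromosome 3 (plus strand), 42 nt beyond its leading site at 8551334, in 8.11, 6.27 and 6.84% of its reads in Light, against 3.41, 4.75 and 3.18% in Dark. The Light libraries were again all higher (relative log2 change 0.62, adjusted p = 0.00486). XTH4 gained at a site on the other side, at 2765585 of chromosome 2 (plus strand), 117 nt before its leading site at 2765702. That site held 8.03, 6.61 and 8.95% in Light, against 5.74, 4.11 and 5.33% in Dark (relative log2 change 0.51, adjusted p = 0.0303). Thus, of the tested pair, the minor site that gained was the more distal in XTH9 and XTH16 and the more proximal in XTH4. In XTH4, sites 204 and 132 nt before the gene end, under the 5% minimum, were also higher in every Light library. Their mean shares were 3.76 against 2.50% and 4.72 against 3.47%. The site at 81 nt overlapped between the groups.

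XTH7, the member whose level rose, had 3 sites. Its most distal site, at 17775429 of chromosome 4 (minus strand), held 21.3, 22.6 and 22.4% in Light, against 15.8, 8.51 and 18.5% in Dark. Its most proximal site, at 17775538, held 9.42, 10.3 and 9.33% in Light, against 23.7, 12.8 and 18.5% in Dark. Neither set of values overlapped between groups, but Dark shares rest on 112 reads in all, and the gene did not pass (Simes adjusted p = 0.269 by edgeR). XTH22 (adjusted p = 0.656) and XTH33 (adjusted p = 1.00) did not pass either. XTH8, XTH15, XTH17 and XTH24 had fewer than 2 sites that met the limits, and were not tested.

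**Figure D4:**
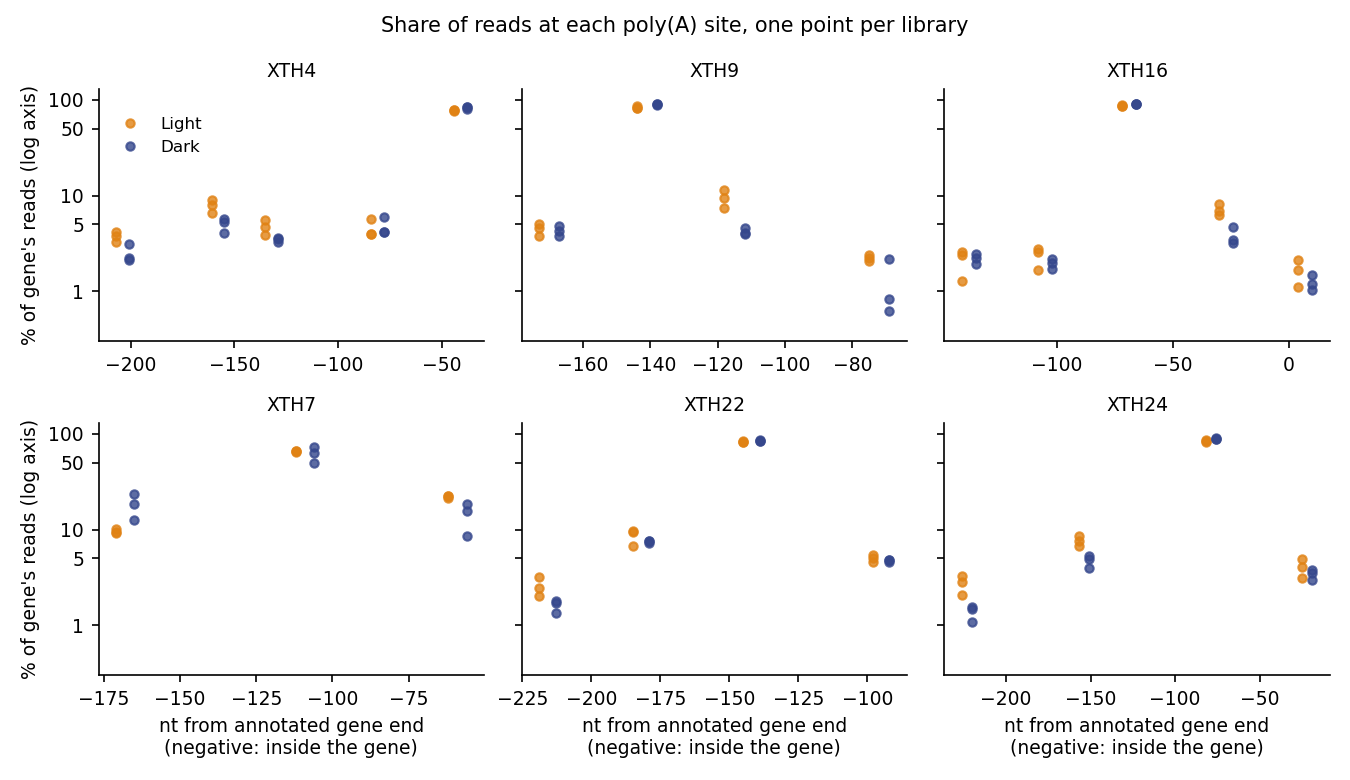
Share of a gene's reads, in percent on a log axis, at each site with at least 1% of its reads in XTH4, XTH9, XTH16, XTH7, XTH22 and XTH24, with 1 point per library and Light drawn just left of Dark. The leading site stays the same in both groups, and the minor sites of XTH9 at 115 nt and of XTH16 at 27 nt before the gene end are higher in every Light library than in every Dark library.

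The share of the leading site was lower in every Light library than in every Dark library for 6 of the 9 members with at least 20 reads in each library (XTH4, XTH9, XTH15, XTH16, XTH22 and XTH24), and higher without overlap in none. Over 12987 genes with the same minimum, 30.4% were lower and 13.7% higher without overlap. The differences were small. XTH15 had 95.9% ± 0.804 at its leading site in Light and 99.2% ± 0.117 in Dark, and XTH24 had 84.3% ± 2.18 in Light and 89.3% ± 1.20 in Dark (n = 3 each, SD). The median difference, Light minus Dark, was -3.92 percentage points over the 9 members and -1.91 over all genes. The mean cleavage position within 400 nt of the gene end differed most in XTH7, at 105 ± 0.184 nt before the end in Light and 118 ± 7.55 nt in Dark (n = 3 each, SD). The next largest difference was that of XTH4, at 62.4 ± 1.11 nt in Light and 56.1 ± 2.17 nt in Dark. In both the libraries did not overlap (exact two-sided permutation p = 0.1, the smallest that 3 against 3 libraries allow). The same held, with smaller differences, for XTH8, XTH9, XTH15, XTH22 and XTH24, but not for XTH16 and XTH33. How often it holds over all genes was not computed. The Dark positions of XTH7 rest on 38, 47 and 27 reads.

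The rest of the XTH family changed in both directions too. Of the 23 other XTH genes, 13 passed the filter, of which 5 rose, 7 fell and 1 did not pass, with a median log2 change of -1.28. Among all genes tested, 37.4% rose and 35.6% fell. XTH31 (AT3G44990), a member of the subfamily that holds the hydrolases, rose 171-fold, with 55.3 ± 5.07 CPM in Light and 0.312 ± 0.0853 CPM in Dark (n = 3 each, SD, adjusted p = 6.96e-12 by edgeR). XTH25 (AT5G57550), the tandem neighbour of XTH22, fell 12.9-fold, with 6.12 ± 0.76 CPM in Light and 78.8 ± 22.7 CPM in Dark. XTH23 (AT4G25810, listed as XTR6) fell 9.64-fold, with 2.93 ± 0.0532 CPM in Light and 28.3 ± 8.92 CPM in Dark. XTH6 (AT5G65730) fell 6.35-fold, with 28.2 ± 7.21 CPM in Light and 179 ± 23.9 CPM in Dark. XTH18 (AT4G30280), next to XTH24 in locus order, fell 3.70-fold, with 11.4 ± 1.87 CPM in Light and 42.2 ± 12.7 CPM in Dark. XTH27 (AT2G01850, listed as EXGT-A3), known from vascular tissue, fell 2.43-fold, with 59.6 ± 2.93 CPM in Light and 145 ± 22.6 CPM in Dark. The largest adjusted p of these 6 genes was 1.36e-06. Site usage was tested in 10 of the other XTH genes by edgeR, with 0 called, and 1 had an unadjusted p under 0.05. The number called was 1 with no reach past the gene end, at a site minimum of 1% and with replicate number as a block. It was 1 without Dark replicate 3 and 2 without Dark replicate 2.

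Genes that make xyloglucan changed in both directions. Of 14 synthesis genes, 13 were tested, and 7 rose, 3 fell and 3 did not pass, with a median log2 change of 0.34. Of all genes tested, 37.4% were called higher and 35.6% lower in Light, 72.9% in either direction. With the replicate number as a block 6 rose and 4 fell. Leaving out 1 library gave 5 to 7 rises and 3 to 4 falls. XLT2 (AT5G62220, listed as GT18), a galactosyltransferase of xyloglucan side chains, rose 5.55-fold, with 28.1 ± 0.591 CPM in Light and 5.06 ± 2.42 CPM in Dark (n = 3 each, SD). CSLC5 (AT4G31590), a glucan synthase of the xyloglucan backbone, rose 5.08-fold, with 33.3 ± 7.93 CPM in Light and 6.54 ± 0.137 CPM in Dark. XXT1 (AT3G62720, listed as XT1) and XXT4 (AT1G18690), xylosyltransferases, fell 4.46-fold and 3.86-fold, XXT1 with 23.0 ± 1.52 CPM in Light and 103 ± 21.3 CPM in Dark.

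All 3 glycosidases that trim xyloglucan in the wall fell, as did 35.6% of all genes tested. XYL1 (AT1G68560), the alpha-xylosidase, fell 2.24-fold, with 40.6 ± 3.43 CPM in Light and 90.9 ± 11.4 CPM in Dark (n = 3 each, SD). AXY8 (AT4G34260, listed as FUC95A), the alpha-fucosidase, fell 1.57-fold, with 14.4 ± 1.52 CPM in Light and 22.7 ± 4.27 CPM in Dark. With scaling by library totals, 2 of the 3 were called lower.

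Alpha-expansins, which loosen the wall without cutting its polymers, mostly rose in Light. Of 15 looked up, 12 were tested, and 10 rose, 1 fell and 1 did not pass, with a median log2 change of 2.74. The shares over all genes tested were 37.4% higher and 35.6% lower. EXPA15 (AT2G03090) rose 94.1-fold, with 192 ± 12.7 CPM in Light and 2.03 ± 0.164 CPM in Dark (n = 3 each, SD), and EXPA10 (AT1G26770) rose 79.0-fold, with 75.2 ± 25.9 CPM in Light and 0.945 ± 0.117 CPM in Dark. Whether the lists differ from each other was not tested.

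**Figure D5:**
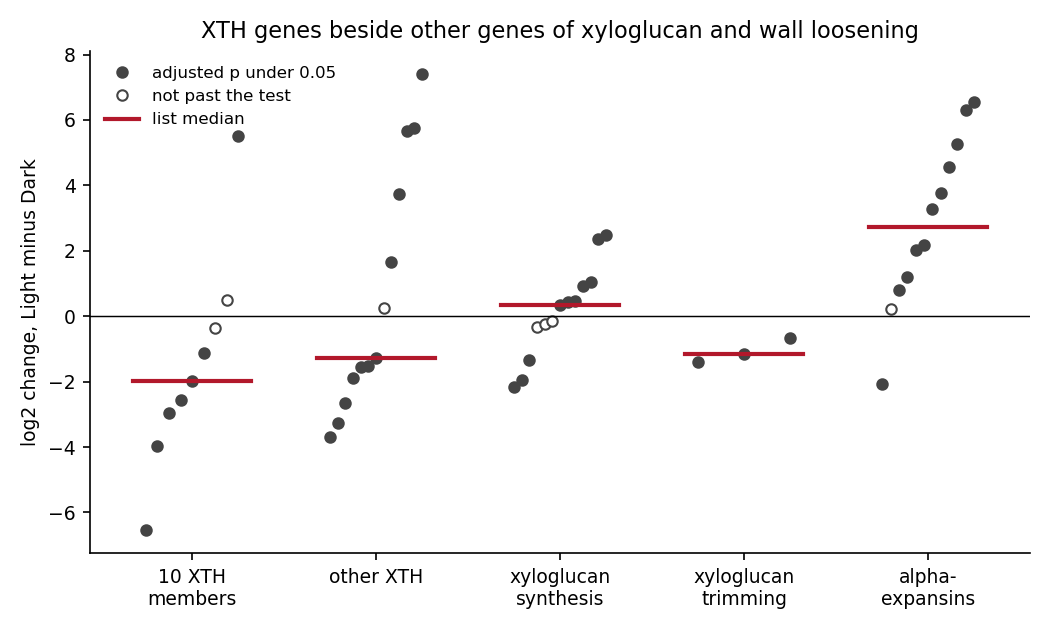
Log2 change, Light minus Dark, of each tested gene in 5 lists, with the list median as a red bar and open points for genes that did not pass. The medians are -1.97 for the described XTH genes, -1.28 for the other XTH genes, 0.34 for xyloglucan synthesis, -1.16 for the trimming glycosidases and 2.74 for the alpha-expansins.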

How the data were processed

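The deposited table holds raw read counts per poly(A) site cluster and library, given by the authors with chromosome, strand and position. The submitters' processing notes name Bowtie2 and TAIR10 without a role or a version. How reads were grouped into clusters is not given in the sources used here. Clusters were assigned to 27444 nuclear protein-coding genes of a RefSeq table (TAIR10.1 assembly), which gives no strand. A gene's strand was taken from the reads around its ends (at least 20 reads, 90% on 1 strand), which resolved 18409 genes. Clusters of 2 or more genes, or within 50 nt of a small RNA gene, were left out.

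Counts per gene were tested with edgeR 4.0.16 (R 4.3.3): TMM factors, filterByExpr (minimum count 10, minimum total 15), quasi-likelihood F-test, Benjamini-Hochberg adjustment over all genes, threshold 0.05. Site usage was tested with diffSpliceDGE on clusters with at least 5% of their gene's reads. DESeq2 1.42.0 was an alternative. SEs come from the spread of log2 CPM between libraries (prior count 2). The members, lists and named-gene rule (every member; called genes with at least 10 CPM in the higher group, all of the other XTH genes and up to 2 rises and 2 falls of each other list) were chosen with earlier results of these data known.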

Additional observations from a re-analysis of the deposited data

Results flagged for a closer look

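Reads on the strand opposite to XTH15 lie outside the count of XTH15 and were seen in Light libraries alone, with 17 reads (2, 5 and 10 per library) in Light and 0 in Dark. All 17 fall inside the oppositely oriented AT4G14120, where it overlaps XTH15, and were not told apart from reads of that gene.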

How the results depend on the processing

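The 7 called members kept direction and call under every alternative run, with log2 changes (Light minus Dark) of 5.29 to 5.97 for XTH7, -6.68 to -6.10 for XTH15, -4.18 to -3.48 for XTH24, -3.08 to -2.51 for XTH22, -2.76 to -2.10 for XTH4, -2.25 to -1.51 for XTH33 and -1.23 to -0.67 for XTH16. Scaling by library totals shifted the all-gene median log2 change by 0.45, gave 8626 genes higher and 4014 lower (68.2% of calls higher, against 51.2%), and called 2 members higher. Without a filter on low counts 2 members were higher, since XTH17 then passed (log2 change 2.44, adjusted p = 0.0442), and with no reach past the gene end 2, since XTH8 did. Leaving out 1 library gave 1 to 2 members higher and 6 to 7 lower. Site usage calls were less stable: at a site minimum of 10%, 0 members and 0 sites were called by edgeR, with 2 members still testable, 0 of them at an unadjusted p under 0.05, at 1% there were 5 called sites, and leaving out 1 library gave 0 to 3 members and 0 to 3 sites. Same-numbered libraries had correlations of their deviations of 0.0585, -0.0128 and 0.126, against -0.102 to 0.0550 for differently numbered ones. Whether they were paired is not stated in the labels. With the replicate number as a block no member's call changed: 1 member higher, 6 lower and 3 with changed usage. TCH2, a touch gene outside the set, passed under that block (log2 change 0.33, adjusted p = 0.0355). Merging clusters within 24 nt joined almost none and changed no member's call. Reads limit the members at low levels, XTH8, XTH17 and XTH33 in both groups, XTH7 in Dark and XTH15 in Light.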

Other observations

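XTH22 carried reads on the opposite strand that went with the group, 1, 5 and 4 in Light and 42, 40 and 42 in Dark, beside 5319 sense reads in Light and 31961 in Dark. XTH15 and XTH24 had no reads on their own strand between 200 and 1000 nt past the gene end, nor did any other member.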
